A study of Mus musculus with 3 samples.

Results

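The mitochondrial ribosomal protein genes were taken as all genes with a symbol that starts with Mrpl or Mrps followed by a number and that were read by a probe set naming exactly 1 gene. There were 76 such genes among the 18193 genes read in this way, 47 of them with Mrpl symbols and 29 with Mrps symbols. Livers of male C57BL/6J mice were compared after 15 weeks on 1 of 3 diets, started at 6 weeks of age, to ask how an iron supplement changes hepatic gene expression under high-fat feeding. HF+SFC mice received a high-fat diet (60% of energy from fat, 20% from carbohydrate and 20% from protein) with sodium ferrous citrate, an iron salt, added at 0.023% by weight. HF mice received the high-fat diet without the salt, and Control mice received a diet with 10% of energy from fat, 70% from carbohydrate and 20% from protein. The labels name no allele or other treatment, so that the groups differed in diet only. Each group was measured on 1 Affymetrix array hybridised with a mix of all its samples, so that there were 3 arrays, no replicates and no test, and a difference between 2 arrays cannot be told apart from variation between pools, labellings or hybridisations.

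The mitochondrial ribosome translates the few messenger RNAs that mitochondrial DNA still encodes, and all of these code for subunits of the respiratory chain and ATP synthase. Its ribosomal RNAs come from mitochondrial DNA, whereas every one of its proteins is encoded in the nucleus, made in the cytosol and imported. About the core inherited from bacteria it carries many proteins that have no bacterial counterpart, and the hepatocyte is one of the cells rich in mitochondria.

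Promoter sequences show what the genes share outside the array. RefSeq promoter windows of assembly GRCm38.p6, 250 bases before to 50 bases after a transcript start, were found for 67 of the 76 genes, in 73 windows. The motif of NRF1, a nuclear factor known for genes of mitochondrial proteins, with any base at 1 inner place, stood in 16.4% of the 73 windows, against 9.75% of the windows of all genes kept on the arrays and 4.60% of all 32851 windows in the table. CCGGAAGT, bound by ETS factors such as GABPA, also stood in 16.4% of the windows of these genes, against 7.73% and 3.89%. The motif of YY1, whose opposite strand is in capitals in the Mrps11 window below, stood in 6.85%, against 1.96% and 0.852%. The GC box GGGCGGGG (SP1) stood in 24.7% of them, less often than in windows of kept genes (31.5%) and more often than in all windows (17.6%), and TATAAA stood in 6.85%, against 7.99% and 13.6%. Both strands were searched, and of the 63 matches 0 overlapped a match of another motif. A match is only an occurrence of these letters and not evidence of binding. The 4 windows below belong to genes whose signals are described later, Mrpl12 of the ribosomal stalk, Mrpl17 and Mrpl45 of the exit site and Mrps11 of the small subunit. They are written 5′ to 3′ in the direction of the gene, with capitals on the NRF1 motif, on either strand, in the first 3 and on the YY1 motif, read on the opposite strand, in the last.
Mrpl12, chr11:120484387-120484686, + strand: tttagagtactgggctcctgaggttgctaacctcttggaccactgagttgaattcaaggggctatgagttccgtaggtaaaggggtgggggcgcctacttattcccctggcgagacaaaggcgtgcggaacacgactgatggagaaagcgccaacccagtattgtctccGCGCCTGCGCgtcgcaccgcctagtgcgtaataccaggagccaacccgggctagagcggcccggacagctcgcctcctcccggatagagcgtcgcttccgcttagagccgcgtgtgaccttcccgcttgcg
Mrpl17, chr7:105811038-105811337, - strand: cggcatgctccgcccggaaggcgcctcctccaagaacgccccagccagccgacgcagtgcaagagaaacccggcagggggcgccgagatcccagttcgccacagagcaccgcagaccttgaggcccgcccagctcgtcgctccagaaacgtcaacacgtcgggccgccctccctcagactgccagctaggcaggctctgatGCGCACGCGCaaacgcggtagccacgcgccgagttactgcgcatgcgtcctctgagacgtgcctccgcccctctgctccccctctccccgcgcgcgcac
Mrpl45, chr11:97315466-97315765, + strand: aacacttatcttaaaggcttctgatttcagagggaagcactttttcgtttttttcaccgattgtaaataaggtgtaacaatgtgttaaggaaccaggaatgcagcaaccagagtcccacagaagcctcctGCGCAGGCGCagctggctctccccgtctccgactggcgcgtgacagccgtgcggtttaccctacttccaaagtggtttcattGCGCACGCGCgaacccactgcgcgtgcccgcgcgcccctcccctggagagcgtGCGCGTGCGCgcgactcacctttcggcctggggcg
Mrps11, chr7:78782881-78783180, + strand: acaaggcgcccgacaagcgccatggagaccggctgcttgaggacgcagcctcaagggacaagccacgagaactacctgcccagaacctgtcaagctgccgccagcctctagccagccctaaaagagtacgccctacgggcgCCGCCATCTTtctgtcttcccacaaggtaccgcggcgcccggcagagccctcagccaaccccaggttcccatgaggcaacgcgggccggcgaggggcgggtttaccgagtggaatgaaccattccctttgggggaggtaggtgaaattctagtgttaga

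Of the 67 genes, 27 held an NRF1, ETS or YY1 motif in the window. In HF+SFC over HF the median log2 ratio was 0.13 for the 12 genes with the NRF1 motif, 11 of which lay above 0, and 0.09 for the 55 without it, 43 of which lay above 0. For the ETS motif the medians were 0.07 with it (12 genes, 9 above 0) and 0.13 without it. The difference between genes with and without a motif was not tested.

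Many of these genes also start close to another gene on the opposite strand. Windows of 23 of the 67 genes (34.3%) overlapped a window on the other strand, against 18.7% of kept genes and 11.9% of all genes in the table. Mrpl46 and Mrps11 formed 1 such pair inside the set, with starts 42 bases apart and pointing away from each other. Their log2 ratios in HF+SFC over HF were 0.18 for Mrpl46 and 0.36 for Mrps11. The 17 kept neighbours outside the set had a median log2 ratio of 0.12 in HF+SFC over HF, with 13 above 0. In HF+SFC over Control their median was -0.13, with 4 of 17 above 0, and the 17 ribosomal protein genes beside them had a median of 0.11, with 14 above 0.

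On the arrays, signal (MAS5 intensity on a linear scale) was scaled by the authors to the same trimmed mean of 500.004 on each array, and the median over all probe sets was 80.4 in HF+SFC, 87.3 in HF and 81.7 in Control. Each gene was represented by the probe set with the highest mean log2 signal, and was kept where this mean was in the upper 50% of probe sets, a signal of 76.9 or more, which left 11341 genes. Hepatocyte markers had a summed signal of 316781 in HF+SFC, 316521 in HF and 331818 in Control over the 6 markers on the array, so that the label of liver was met. The 15 macrophage and Kupffer cell markers summed to 23959 in HF+SFC, 33367 in HF and 24104 in Control, and the 11 stellate cell and matrix markers to 19340, 25540 and 16964 in the same order. No marker was at 0 on any array. The ratio of 3′ to 5′ probe sets, a measure of RNA integrity, was 1.73, 1.65 and 1.84 for Actb in the order HF+SFC, HF and Control. Over 24 probe sets of control RNAs added before labelling, the median log2 ratio was -0.25 in HF+SFC over HF. It was -0.14 in HF over Control and -0.39 in HF+SFC over Control. Over 18 probe sets of hybridisation controls the medians were 0.02, -0.08 and -0.05 in the same comparisons.

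All 76 mitochondrial ribosomal protein genes were kept, and all 76 lay in the upper 25% of probe sets, at a signal of 394 or more. Their signals ran from 508 to 6247 with a median of 1820 in HF+SFC, from 489 to 5728 with a median of 1627 in HF, and from 380 to 6328 with a median of 1765 in Control. The brightest probe sets were those of Mrpl39, Mrpl51, Mrpl42, Mrpl12 and Mrpl27, proteins of the large subunit. Mrpl39 had 6247 in HF+SFC, 5728 in HF and 6328 in Control. Mrpl51 had 5975 in HF+SFC, 5633 in HF and 5793 in Control, and Mrpl42 had 4377, 4418 and 4356 in the same order. These 3 genes differed little between the diets, with log2 ratios between -0.14 and 0.12 in all 3 comparisons. The dimmest was Mrps27, a pentatricopeptide repeat protein of the small subunit, with 544 in HF+SFC, 489 in HF and 380 in Control. A signal depends on the affinity of its probes and does not rank the amounts of different transcripts.

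**Figure D1:**
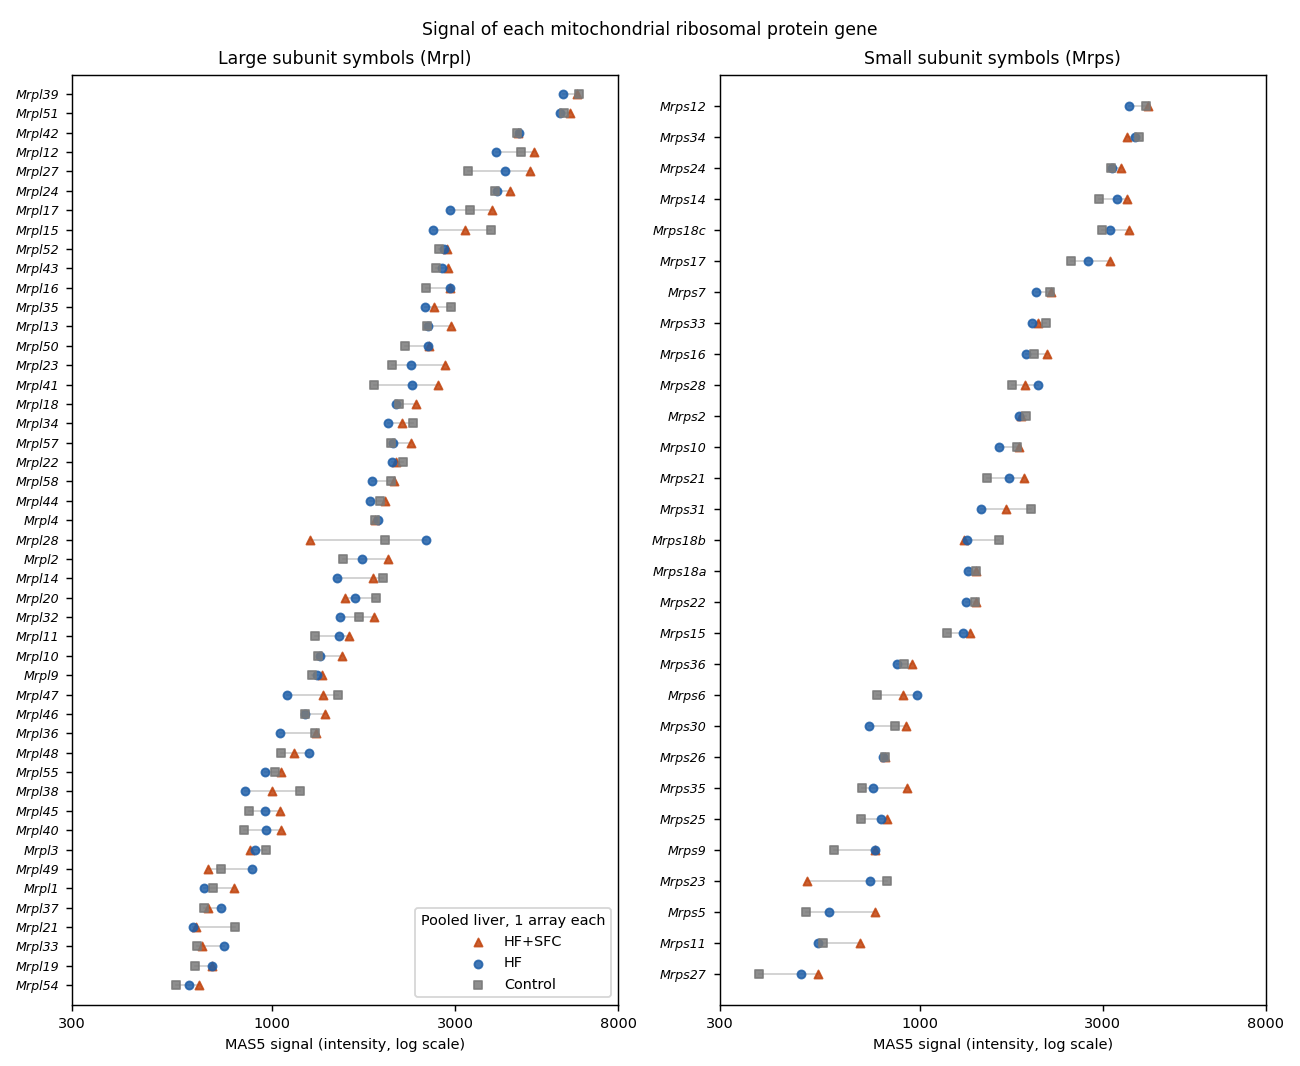
MAS5 signal (x axis, intensity on a log scale) of each of the 76 genes (rows, Mrpl symbols left and Mrps symbols right), read by its brightest probe set on the HF+SFC array (triangles), the HF array (circles) and the Control array (squares), each a pool with no error bar. Signals lie between 380 and 6328, and the widest gap is that of Mrpl28, at 1254 in HF+SFC and 2527 in HF.

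In HF+SFC over HF, which asks what the iron salt changed under the high-fat diet, signals of the mitochondrial ribosomal protein genes were slightly higher as a set. The median log2 ratio was 0.13 (1.09-fold) with quartiles of 0.02 and 0.19, whereas it was -0.01 over all kept genes and 0.02 over the 6834 genes in the upper 25% of signal. Ratios lay above 0 in 59 of 76 genes, against 48.8% of all kept genes and 53.5% of the genes in the upper 25%. At least 1.2-fold higher in HF+SFC were 13 genes, against 12.6% of all kept genes and 7.93% of the upper 25%, and at least 1.2-fold lower were 3 genes, against 18.4% and 8.81%. No gene was at least 1.5-fold higher, against 2.88% of kept genes and 0.571% of the upper 25%, and 1 gene, Mrpl28, was at least 1.5-fold lower, against 5.33% and 1.11%. The ratios thus formed a small offset that most genes had. Differences past 1.5-fold were about as rare as among all genes of the upper 25%. The offset was smaller in size than the shift of the controls added before labelling (-0.25), and it was not tested.

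Subunits did not divide the genes clearly. Mrpl genes had a median of 0.13, with 36 of 47 above 0, and Mrps genes a median of 0.09, with 23 of 29 above 0. By origin, the median was 0.15 for 28 large subunit proteins with a bacterial counterpart (21 above 0), 0.13 for 16 small subunit proteins with one (13 above 0), 0.12 for 21 large subunit proteins without one (17 above 0) and 0.05 for 10 small subunit proteins without one (7 above 0). Mrps36, which later work placed with a citric acid cycle enzyme, was left out of these lists and had a log2 ratio of 0.13. Mrps18a and Mrps18b were listed as having no bacterial counterpart, although both are relatives of a bacterial protein, as described below.

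**Figure D2:**
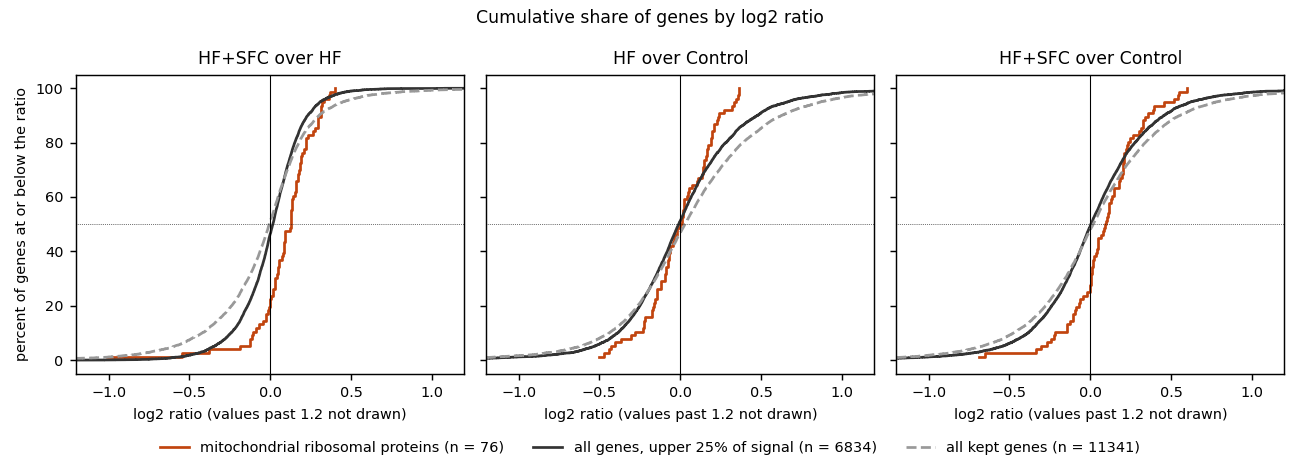
Cumulative share of genes (y axis, percent) at or below each log2 ratio (x axis) in HF+SFC over HF, HF over Control and HF+SFC over Control, for the 76 mitochondrial ribosomal protein genes, the 6834 genes in the upper 25% of signal and the 11341 kept genes. The line of the 76 genes lies to the right of both others at the 50% level in HF+SFC over HF (median 0.13) and HF+SFC over Control (0.09), and close to them in HF over Control (0.01).

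The 4 genes listed for the stalks of the large subunit all had higher signals in HF+SFC than in HF, with a median log2 ratio of 0.23. These stalks recruit translation factors and guide transfer RNAs. Over the whole set 59 of 76 genes were above 0, with a median of 0.13. Of all kept genes 48.8% were above 0, and 53.5% of those in the upper 25%. Mrpl12, the stalk protein that contacts translation factors, had a signal of 4828 in HF+SFC, 3831 in HF and 4460 in Control, a log2 ratio of 0.33. Mrpl10, which anchors Mrpl12, had 1521 in HF+SFC, 1335 in HF and 1318 in Control (0.19). HF+SFC was the highest array for both. Mrpl1, of the stalk at the exit of transfer RNAs, had 795, 662 and 699.7 in the order HF+SFC, HF and Control (0.26), and its other kept probe set gave 0.22. Mrpl11, at the base of the stalk, had 1591 in HF+SFC, 1495 in HF and 1293 in Control (0.09), and its 2 other kept probe sets gave 0.29 and 0.48. All 7 kept probe sets of these 4 genes were above 0, as were 94 of the 135 kept probe sets of the whole set.

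Genes of proteins around the exit of the nascent chain, where the ribosome meets the inner membrane, likewise had ratios above 0 in 8 of 8, with a median of 0.13. That was also the median of the whole set, so the exit site did not stand out from it. Mrpl17 had a signal of 3754 in HF+SFC, 2906 in HF and 3279 in Control, a log2 ratio of 0.37. Its dimmer kept probe set read 115 in HF+SFC, 65.9 in HF and 103 in Control (0.80), and Mrpl17 was the 1 gene of 36 with 2 or more kept probe sets in which all were at least 1.2-fold higher (2.05% of all genes so read). Mrpl23, which lines the rim of the exit, had 2825 in HF+SFC, 2305 in HF and 2056 in Control (0.29). In both genes the HF+SFC array was the highest of the 3. Mrpl47 had 1358 in HF+SFC, 1092 in HF and 1482 in Control (0.32), but a dim kept probe set went the other way, at 69.9, 128 and 72.3 in the same order (-0.87). Mrpl45, which links the ribosome to the inner membrane, had 1047 in HF+SFC, 955 in HF and 872 in Control (0.13). Mrpl44 (0.13), Mrpl39 (0.12), Mrpl24 (0.12) and Mrpl22 (0.03) made up the rest, and the differences of these 4 were small beside the spread between probe sets given below.

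Outside these places, the highest ratios were those of Mrps5, Mrps11 and Mrps30. Mrps5, a core protein of the small subunit near the entry of the messenger RNA, had a signal of 763 in HF+SFC, 578 in HF and 505 in Control (0.40). Its 4 other kept probe sets did not share a direction in HF+SFC over HF, with log2 ratios of -0.60, -0.11, 0.16 and 0.68. Mrps11, of the platform of the small subunit, had 696 in HF+SFC, 542 in HF and 560 in Control (0.36) and no other kept probe set. Mrps30 is named for the small subunit but belongs to the large one, and had 921, 738 and 861 in the order HF+SFC, HF and Control (0.32). HF+SFC was the highest array for both, HF and Control lay close together for Mrps11, and HF was the lowest for Mrps30. Both were picked for a high ratio of HF+SFC over HF, from which this place of HF+SFC can follow. Mrpl1 (0.26) was the last gene inside the 1.2-fold limit and Mrpl38 (0.23) the first outside it.

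The genes at the lower end were read differently by their probe sets. Mrpl28, a core protein of the large subunit, had a signal of 1254 in HF+SFC, 2527 in HF and 1970 in Control (-1.01), which made it the gene past 1.5-fold. A second probe set of nearly the same brightness read 1766 in HF+SFC, 1870 in HF and 1469 in Control (-0.08), and another read 1788 in HF+SFC, 1472 in HF and 1722 in Control (0.28). The 3 probe sets did not agree on a direction. Mrps23 had 508 in HF+SFC, 742 in HF and 819 in Control (-0.54), whereas its other probe sets gave 0.11 and -0.12. Mrpl49 had 681 in HF+SFC, 886 in HF and 734 in Control (-0.38), with 0.12 from its other probe set. No gene of the 3 was thus lower by all its probe sets. Mrpl33 (-0.19, and -0.17 from its other kept probe set) and Mrpl48 (-0.13, and 0.11) followed.

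With no replicates, the spread between probe sets of the same gene was taken as a stand-in for the error. It also holds transcript variants and cross-hybridisation. Since the probe sets share the same arrays, it lacks the variation between pools, labellings and hybridisations. Over the 36 genes with 2 or more kept probe sets the SD between probe sets of a gene was 0.33 in HF+SFC over HF, 0.32 in HF over Control and 0.29 in HF+SFC over Control, and 0.26, 0.22 and 0.25 over the 19 genes with 2 or more probe sets in the upper 25%. Over all genes with 2 or more probe sets in the upper 25% it was smaller, at 0.17, 0.20 and 0.20. The ratio of a single gene lay within 1 such SD (0.33) of 0 in 69 of 76 genes in HF+SFC over HF. The 59 kept probe sets that had not been used to read a gene gave a median of 0.08 in HF+SFC over HF, with 35 of 59 above 0. Read by the median over the kept probe sets, 54 of the 76 genes lay above 0, with a median of 0.09. Among all kept genes read in this way 47.6% lay above 0. All kept probe sets lay above 0 in 12 of the 36 genes (20.2% of all genes so read) and at or below 0 in 2 (24.8%), and 22 were mixed. Among 21 probe sets that were too dim to be kept, 15 (71.4%) were past 1.5-fold, against 9 of the 135 kept ones (6.67%), and no gene was judged by them.

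**Figure D3:**
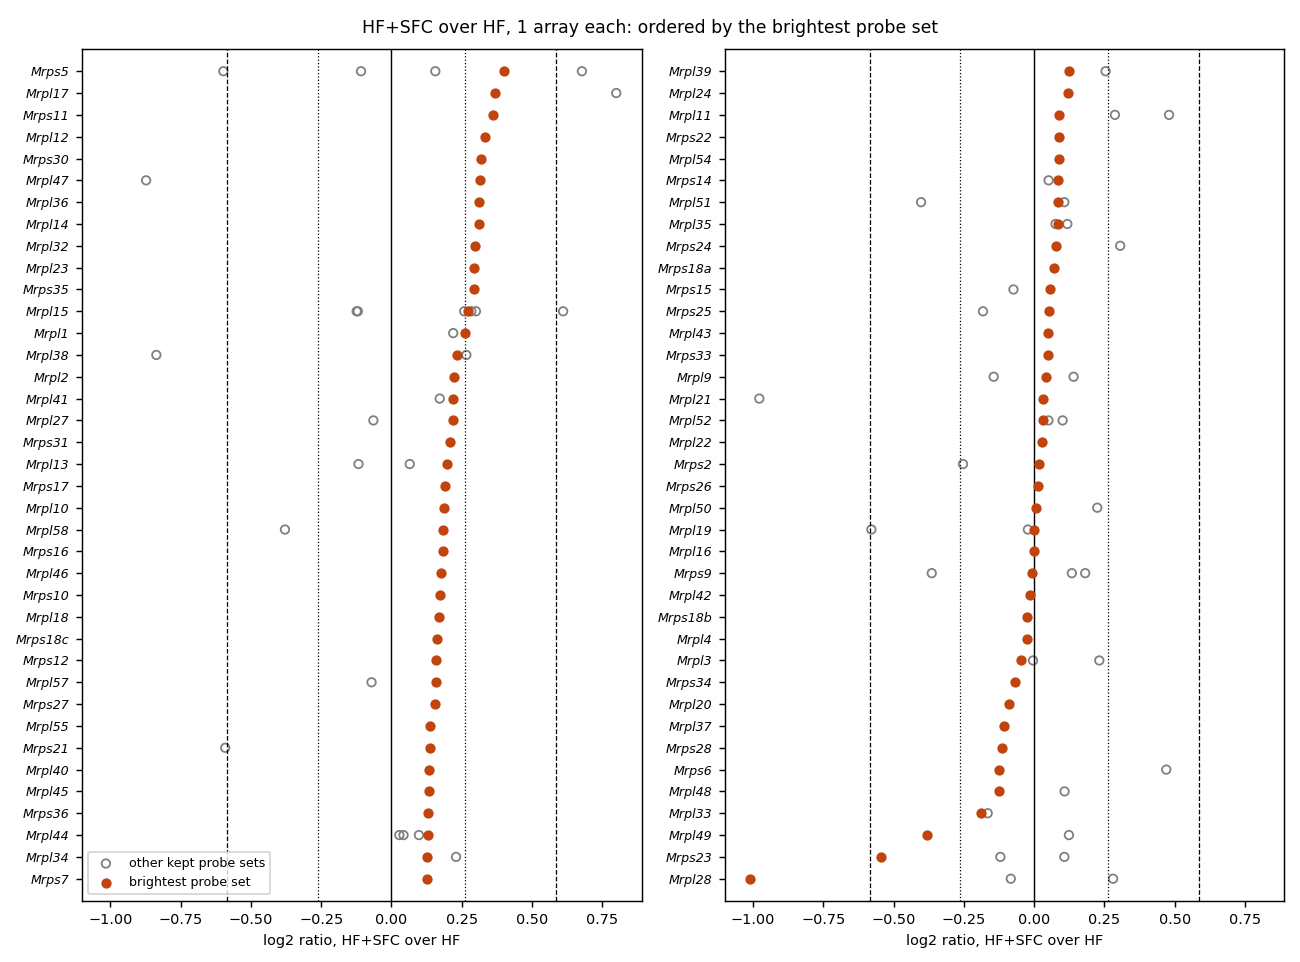
Log2 ratio of HF+SFC over HF (x axis) for the 76 genes (rows, ordered by ratio), from the brightest probe set (filled circles) and from the 59 other kept probe sets (open circles), with dotted lines at 1.2-fold and dashed lines at 1.5-fold. Of the brightest probe sets 59 lie above 0, and those of Mrpl28 (-1.01), Mrps23 (-0.54) and Mrpl49 (-0.38) lie far below the other probe sets of their genes.

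In HF over Control, which compares the high-fat diet with the control diet, the set showed no common direction. The median log2 ratio was 0.01, against 0.03 over all kept genes, and 39 of 76 genes lay above 0, against 53.1% of all kept genes and 48.7% of those in the upper 25% of signal. At least 1.2-fold higher in HF were 7 genes (28.2% of all kept genes and 21.1% of the upper 25%) and at least 1.2-fold lower were 8 (20.1% and 18.9%). No gene passed 1.5-fold in either direction, against 11.3% of all kept genes that were higher (6.5% of the upper 25%) and 5.84% that were lower (4.14%). The stalk genes had a median of -0.03, with 2 of 4 above 0, and the exit site genes one of -0.09, with 3 of 8 above 0. The median was 0.11 for small subunit proteins with a bacterial counterpart, 10 of 16 above 0.

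The genes with the lowest ratios in HF over Control belonged mostly to the large subunit. Mrpl15, a core protein, read 2630 in HF and 3722 in Control (-0.50), with 3179 in HF+SFC. All 7 of its kept probe sets were below 0 in this comparison, with the lowest at -0.54, and 5 of the 7 were above 0 in HF+SFC over HF. Mrpl38 had 852 in HF and 1184 in Control (-0.47), and its 2 other kept probe sets gave -0.31 and -0.28, so that it was the 1 gene of the 36 with 2 or more kept probe sets in which all were at least 1.2-fold lower (7.31% of all genes so read). Mrpl47 had 1092 in HF and 1482 in Control (-0.44), with 0.83 from its dim probe set. Mrps31 had 1448 in HF and 1946 in Control (-0.43), and Mrpl14, at the face between the subunits, had 1474 in HF and 1948 in Control (-0.40). For all 5 the HF+SFC array lay between HF and Control, at 999.9 for Mrpl38, 1358 for Mrpl47, 1674 for Mrps31 and 1829 for Mrpl14. These genes were picked for a low HF signal against Control. A higher signal in HF+SFC than in HF can follow from that choice and is no separate evidence.

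The highest ratios in HF over Control were those of Mrps27, Mrps9, Mrpl28, Mrps6 and Mrpl41. Mrps27 read 489 in HF and 380 in Control (0.36). Mrps9, a core protein of the small subunit, had 766 in HF and 596 in Control (0.36), whereas its 3 other kept probe sets gave -0.18, -0.12 and 0.29. Mrps6, also of the small subunit core, had 982 in HF and 775 in Control (0.34), with -0.15 from its other probe set. Mrpl41 had 2323 in HF and 1847 in Control (0.33), with -0.02 from its other kept probe set. In 4 of these 5 genes, all but Mrps27 with its 1 probe set, the probe sets differed in direction.

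In HF+SFC over Control, the combined difference, the median log2 ratio was 0.09, against 0.02 over all kept genes, and 55 of 76 genes lay above 0, against 52.1% of all kept genes and 50.6% of those in the upper 25%. At least 1.2-fold higher were 14 genes (25.4% of all kept genes and 20.9% of the upper 25%) and at least 1.2-fold lower were 5 (21% and 17.9%). Mrps5 was the 1 gene at least 1.5-fold higher (9.2% and 6%), and Mrpl28 and Mrps23 were the 2 at least 1.5-fold lower (6.88% and 4.48%). This comparison shares its arrays with the other 2 and is no separate evidence.

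Mrps5 had a log2 ratio of 0.60 in HF+SFC over Control, and its other kept probe sets gave 0.32, 0.17, 0.45 and -0.04. Mrpl41 had 2704 in HF+SFC and 1847 in Control (0.55, and 0.15 from its other kept probe set). Mrpl27, a protein near the catalytic centre, had 4715 in HF+SFC, 4054 in HF and 3242 in Control (0.54 in HF+SFC over Control, and 0.18 from its other kept probe set). Mrps27 (0.52) and Mrpl23 (0.46) came next, and in all 5 genes Control was the lowest of the 3 arrays and HF+SFC the highest. These 5 genes were picked for a high HF+SFC signal against Control, so that this order can follow from the choice. At the other end, Mrps23 was at -0.69, with -0.14 and 0.01 from its other probe sets, and Mrpl28 at -0.65, with 0.26 and 0.05. Mrpl21 had 635 in HF+SFC, 621 in HF and 802 in Control (-0.34), and its other kept probe set gave -1.03, which made it the 1 gene of those 36 with all kept probe sets at least 1.2-fold lower (8.01% of all genes so read). Mrps18b (-0.30) and Mrpl20 (-0.27), each with 1 probe set, were also lower in HF+SFC.

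The 3 proteins of the Mrps18 family are alternative relatives of 1 bacterial protein, of which Mrps18a sits in the large subunit and the others in the small one. Mrps18a had a signal of 1401 in HF+SFC, 1334 in HF and 1398 in Control. Mrps18b had 1306 in HF+SFC, 1328 in HF and 1612 in Control, and Mrps18c had 3508 in HF+SFC, 3138 in HF and 2989 in Control. The order of the arrays was thus different for each of the 3, with log2 ratios in HF+SFC over Control of 0.00 for Mrps18a, -0.30 for Mrps18b and 0.23 for Mrps18c.

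Variants of 12 of the genes are known to cause mitochondrial disease in humans. These 12 had a median log2 ratio of 0.07 in HF+SFC over HF (8 above 0), -0.07 in HF over Control (3 above 0) and 0.03 in HF+SFC over Control (8 above 0). Mrpl12 (0.33) and Mrps23 (-0.54) were at the ends in HF+SFC over HF. Between them lay Mrps16 (0.18, with a signal of 2147 in HF+SFC, 1891 in HF and 1980 in Control), Mrpl44 (0.13), Mrps7 (0.13), Mrps22 (0.09), Mrps14 (0.09), Mrps25 (0.05), Mrps2 (0.02), Mrpl3 (-0.05), Mrps34 (-0.07) and Mrps28 (-0.11). The other 10 were thus within 1.2-fold between these arrays.

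The rest of the machinery of mitochondrial translation was read from lists of other genes. Of the 5 listed subunits that carry other symbols, 4 were kept, with medians of 0.10 in HF+SFC over HF, 0.22 in HF over Control and 0.37 in HF+SFC over Control. Dap3, the GTP-binding protein of the small subunit, had a signal of 1984 in HF+SFC, 1762 in HF and 1202 in Control, a log2 ratio of 0.72 in HF+SFC over Control. Ptcd3 had 1332, 1311 and 982 in the order HF+SFC, HF and Control, and Chchd1 had 2891, 2383 and 2357. Gadd45gip1, of the large subunit, was the 1 of the 4 below 0 in every comparison, at 1096 in HF+SFC, 1136 in HF and 1338 in Control.

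Of 25 genes of ribosome assembly and ribosomal RNA modification 24 were kept, Ybey being too dim, and their medians were 0.03 in HF+SFC over HF (15 above 0), -0.04 in HF over Control (11 above 0) and 0.08 in HF+SFC over Control (15 above 0). Mpv17l2, an assembly factor of the mitochondrial ribosome in human cells, had a signal of 504 in HF+SFC, 289 in HF and 302 in Control, a log2 ratio of 0.80 in HF+SFC over HF from its 1 probe set. Mrm2, a methyltransferase of the large ribosomal RNA, had 320, 229 and 299.6 in the order HF+SFC, HF and Control (0.48 in HF+SFC over HF), and Tfb1m, which methylates the small ribosomal RNA, had 944, 686 and 734 (0.46, and -0.20 from its other kept probe set). These 3 had their highest signal in HF+SFC, which can follow from their choice by the ratio of HF+SFC over HF. Mettl15, also a methyltransferase of the small ribosomal RNA, was instead high on both high-fat arrays, at 458 in HF+SFC, 528 in HF and 205 in Control (1.36 in HF over Control). Mtg2, a GTPase of the large subunit, had 459.7 in HF+SFC, 519 in HF and 775 in Control (-0.58 in HF over Control), whereas its 2 other kept probe sets gave -0.13 and 0.27. Trub2, a pseudouridine synthase, had 0.46 in HF over Control, with 0.22 and -0.18 from its other probe sets.

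Of 15 listed translation factors 13 were on the array and kept, with medians of 0.05 in HF+SFC over HF, 0.10 in HF over Control and 0.12 in HF+SFC over Control. Mtrf1l, a release factor, had a signal of 419 in HF+SFC, 265 in HF and 252 in Control, a log2 ratio of 0.66 in HF+SFC over HF. Tsfm, the exchange factor of the elongation factor Tufm, had 565 in HF+SFC, 545 in HF and 372 in Control, and Mtfmt, which formylates the initiator transfer RNA, had 441, 409 and 285 in the same order. Both were thus higher on the high-fat arrays, with log2 ratios in HF over Control of 0.55 for Tsfm and 0.52 for Mtfmt. Mtif3, an initiation factor, had 741 in HF+SFC, 623 in HF and 863 in Control (-0.47 in HF over Control). Tufm itself was read inconsistently, at -0.20, 0.81 and -0.23 in HF+SFC over HF by its 3 kept probe sets.

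**Figure D4:**
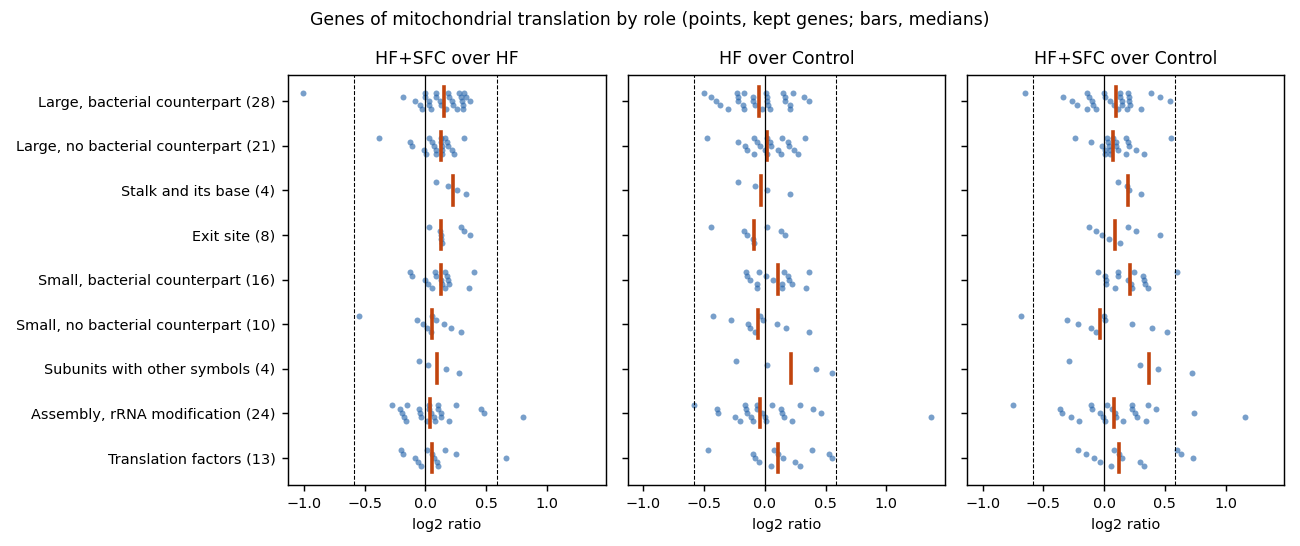
Log2 ratio (x axis) of kept genes of mitochondrial translation (points) with the median of each role (bars) in the 3 comparisons, with the number of genes in brackets and dashed lines at 1.5-fold. In HF+SFC over HF the medians run from 0.03 for assembly and rRNA modification to 0.23 for the stalk, and in HF over Control from -0.09 for the exit site to 0.22 for subunits with other symbols.

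Beside the mitochondrial ribosomal protein genes, 74 kept subunits of oxidative phosphorylation, which include the partners of the proteins this ribosome makes, had medians of 0.08 in HF+SFC over HF (60 above 0), -0.05 in HF over Control (26 above 0) and 0.04 in HF+SFC over Control (45 above 0). The 42 kept cytosolic ribosomal proteins had medians of 0.11 in HF+SFC over HF (37 above 0), -0.32 in HF over Control (3 above 0) and -0.21 in HF+SFC over Control (1 above 0). Of all kept genes 48.8% were above 0 in HF+SFC over HF, 53.1% in HF over Control and 52.1% in HF+SFC over Control. In the upper 25% of signal these shares were 53.5%, 48.7% and 50.6%. The 3 medians lay between 0.08 and 0.13 in HF+SFC over HF, whereas in HF over Control 28 of the 42 cytosolic genes were at least 1.2-fold lower, against 8 of the 76 mitochondrial ones. Of all kept genes 20.1% were at least 1.2-fold lower there, and 18.9% of the upper 25%. The difference between the lists was not tested.

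Beside the offset in HF+SFC over HF, signals of macrophage markers and of stellate cell and matrix markers were lower. All 15 macrophage markers had ratios below 0, with a median log2 ratio of -0.46, and all 11 stellate cell and matrix markers, with a median of -0.60. Of all kept genes 48.8% lay above 0. The median was -0.23 for 8 endothelial markers (1 above 0) and -0.73 for 3 kept cholangiocyte markers (1 above 0). Only 1 lymphocyte marker was kept, at -2.37. The 6 hepatocyte markers had a median of 0.01, at signals between 40579 and 68088. Whether signals that bright still follow the amount of RNA was not tested. In HF over Control all 15 macrophage markers lay above 0 (53.1% of all kept genes), with a median of 0.50. So did all 11 stellate cell and matrix markers, with a median of 0.78, whereas the median of the 76 genes was 0.01 there. The endothelial median was 0.19 (5 of 8 above 0), the cholangiocyte median was 0.38 (2 of 3 above 0), and the lymphocyte marker was at 1.37. In these bulk pools fewer cells of a type and less RNA per cell cannot be told apart. The part of cell composition in the offset was not tested. Centring each array on its median signal shifted all genes alike. The median of HF+SFC over HF became 0.11 over all kept genes and 0.24 over the 76 genes, and these 2 medians stayed 0.13 apart. Then 30 of the 76 genes were at least 1.2-fold higher (24.0% of all kept genes) and 2 lower (11.8%), and in HF over Control 3 were higher (21.7%) and 15 lower (28.4%).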

How the data were processed

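Liver RNA was labelled with biotin and hybridised to mouse Affymetrix arrays, 1 pool per diet. The deposited values are MAS5 intensity values per the labels, scaled by the authors to a trimmed mean of 500.004 on each array. The version of MAS5 is not given in the sources used here, and neither are detection calls. The labels state an age of 21 months, which does not match 6 weeks plus 15 weeks of diet, and it was not used. How many mice were pooled is not given in the sources used here.

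Gene names came from the platform annotation of the probe sets, and all 76 Entrez identifiers of the set matched RefSeq GRCm38.p6 with 0 changed symbols. Among probe sets naming 1 gene, the one with the highest mean log2 signal stood for the gene. Log2 ratios were computed between arrays with no background step, no pseudocount and no test. Counts above 0, past 1.2-fold and past 1.5-fold, the threshold of the study, were set beside those over all kept genes. Promoter motifs were counted as exact matches. The genes named are, in each comparison, those past 1.5-fold, the 5 highest and 5 lowest, those with all kept probe sets past 1.2-fold, the 5 brightest, the Mrps18 family, the stalk, exit site and disease lists, and up to 3 genes of largest ratio in each other list. The genes set and the lists were chosen with earlier results of these data known. Mrpl46, Mrps36 and the genes of shared probe sets fall outside this rule and were named after their values were seen.

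Alternatives were quantile, median and lowess scaling, other filters on dim probe sets, a floor, a pseudocount of 16, the median over kept probe sets, exclusion of probe sets with suffix s, x or a, and a 2-fold threshold. The steps were tested on simulated data for HF+SFC over HF, in which 100% of 200 genes changed 2-fold among 11339 were recovered. Recovery meant passing 1.5-fold, and the simulated noise was smaller than the spread between probe sets in the data. The simulation therefore checked the steps only, and cannot show that small differences are told apart from noise. Python 3.11.15, pandas 2.3.3, NumPy 2.4.6, statsmodels 0.14.6 and matplotlib 3.10.9 were used. With 1 array per group, the number of arrays limits the precision.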

Additional observations from a re-analysis of the deposited data

How the results depend on the processing

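No paired analysis was possible because each group has 1 array and the groups share only 1 replicate number. Of the alternative values on the whole set, 124 kept their direction and stayed near the reported one, 12 moved further and 2 changed direction. The other filters on dim probe sets and the floor could not change these values, because all 76 genes passed every filter and lay above the floor. The pseudocount was small beside their signals and could move them little. Agreement under these settings is part of the 124, was largely fixed in advance and says nothing about stability. Median centring shifted the median over all kept genes by over 0.1 in HF+SFC over HF, and gave the 76 genes a median of 0.243 there, with 30 at least 1.2-fold higher. In HF over Control it gave a median of -0.0888, with 3 genes at least 1.2-fold higher, 15 lower and 1 past 1.5-fold. The median over kept probe sets gave 0 genes past 1.5-fold in HF+SFC over HF, a median of -0.0215 and 1 gene past 1.5-fold in HF over Control, and 3 genes at least 1.2-fold lower in HF+SFC over Control. Without probe sets of suffix s, x or a, which left 62 of the genes, 3 genes were past 1.5-fold in HF+SFC over HF, and 3 were past 1.5-fold and 3 at least 1.2-fold higher in HF over Control. At 2-fold, 0 genes passed in HF+SFC over Control. Single genes changed direction mostly with the choice of probe set. The sign of HF+SFC over HF changed in 7 of 37 named genes without the suffixes, among them Mrpl38 (-0.837), Mrpl21 (-0.978) and Mrpl48 (0.108), in 6 of 45 with the median over probe sets, among them Mrpl21 (-0.474), and in 7 of 45 with median centring. Of the genes that had been at least 1.2-fold apart, without the suffixes Mrpl15 was at -0.12 and Mrpl28 at 0.281 in HF+SFC over HF, and Mrpl28 at -0.227, Mrpl41 at -0.0191, Mrps6 at -0.151 and Mrps9 at -0.115 in HF over Control. With the median over probe sets, Mrpl47 was at -0.279 in HF+SFC over HF and 0.192 in HF over Control. Mrpl28 was at 0.0543 in HF+SFC over Control under both.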

Other observations

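Probe sets that name several genes were kept out of the set, and 3 genes of the mitochondrial ribosome are touched by them. Mrpl30 shares its probe sets with Gm6238, and the brighter one read 5940 in HF+SFC, 6188 in HF and 6122 in Control (log2 ratio of HF+SFC over HF -0.06). The probe set of Mrpl53 and Ccdc142 read 2409 in HF+SFC, 2018 in HF and 2250 in Control (0.26). Mrps34, read at -0.07 by its own probe set, also shares one with Nme3, which read 997 in HF+SFC, 813 in HF and 852 in Control (0.29). The gene behind each of these signals cannot be told apart.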
